A study of Mus musculus with 6 samples.

Results

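Disallowed genes are genes that nearly all tissues express and that pancreatic islets keep low. A list of 31 of them was followed in islets of mice bred to delete the co-regulator gene Ssbp3 in beta cells. Members were chosen by name, as the genes of the count table whose Ensembl ID carries one of the listed symbols, 31 of 56980 genes with a single ID per symbol. All 31 passed the filter on low counts, as did 18558 genes in all, so no member was left out. The members differ widely in role, and they are described as 9 metabolic enzymes and transporters, 6 secreted factors, 3 membrane receptors, 6 genes of the cytoskeleton and of signalling, and 7 regulators in the nucleus or on RNA.

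RNA-seq libraries were made from whole islets of 14-week-old mice, 3 from control animals of genotype SSBP3F/F and 3 from littermates of genotype SSBP3F/F; MIP-CreER. Both groups carry the floxed Ssbp3 alleles, and the knockout group alone carries MIP-CreER, in which the mouse insulin promoter drives a Cre recombinase that tamoxifen switches on, so that recombination is directed at beta cells and not at the other cells of an islet. The transgene and the loss of Ssbp3 differ together between the groups and cannot be told apart. Tamoxifen treatment, sex and the number of animals behind a library are not given in the labels used here. The spread between libraries may therefore be biological, technical or both.

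In most cell types pyruvate made by glycolysis can be turned into lactate by lactate dehydrogenase A (Ldha) and exported by the monocarboxylate transporter MCT1 (Slc16a1). Beta cells keep both low, which sends pyruvate to the mitochondria and ties insulin release to blood glucose rather than to lactate or pyruvate from exercising muscle. Hexokinase 1 (Hk1), which works at glucose levels far below those of blood, is likewise kept low. Other members encode growth factors, contractile proteins and repressors such as REST that are abundant in mesenchyme or in progenitors. A return of such genes is often read as a sign of lost beta-cell identity, and that is the question the comparison addresses.

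The test detected no general rise of these genes in the islets of the knockout group, which does not show that none took place. Tgm2, which encodes a calcium-dependent enzyme that crosslinks proteins, was the only member that passed the test, and it rose 1.97-fold. The other 30 members were not called. The count of 1 member higher and 0 lower of 31 stands beside 3.72% of all genes tested called higher and 3.35% lower, 7.07% in either direction, and is no larger than that background. At an unadjusted p under 0.05 there were 4 members (Tgm2, Ldha, Ndrg2 and Rarres2), beside 21.6% of all genes. Limma-voom also called 1 member (8.22% of all genes), DESeq2 called 3 (12.4%) and edgeR without a filter on low counts 4 (7.44%). A gene is called where its p in edgeR's quasi-likelihood test, adjusted by Benjamini and Hochberg's method over the 18558 genes, is under 0.05. The test called 691 genes higher and 621 lower (613 and 829 with upper-quartile scaling). The median log2 fold change of the members was 0.10, beside -0.00 for all genes, and it was -0.11 without control 3 and -0.09 without knockout 2. Log2 fold changes were above 0 for 19 of the 31 members (61.3%), beside 49.8% of all genes tested.

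Library totals ran from 14907641 to 225428920 counts, and control 1 and knockout 1 were the shallowest of their groups. Values are given as CPM, the count scaled to the library total after TMM adjustment, and 3 counts were worth between 0.0135 CPM (deepest library) and 0.194 CPM (shallowest). Ssbp3 itself measured 65.8, 81.3 and 74.2 CPM in control libraries 1, 2 and 3 and 52.3, 58.1 and 57.1 CPM in knockout libraries 1, 2 and 3, without overlap. It was not called by edgeR (log2 fold change -0.40, SE 0.117, adjusted p = 0.0581, 0.0165 to 0.283 over 17 alternatives). Which exons are floxed is unknown here, and counts over the whole gene therefore do not check the deletion. The 8 beta-cell markers summed to between 187401 and 241972 CPM in the controls and between 141177 and 158716 CPM in knockout libraries. That sum is mostly Ins2, Ins1 and Iapp, with control means of 136010, 54310 and 23802 CPM. Of the 8 markers 6 were lower without overlap, beside 14.1% of all genes tested. EdgeR called 2 of the 8 lower, beside 3.35% of all genes tested. These were Mafa and Ucn3 (log2 fold changes -1.15 and -0.80, edgeR adjusted p 0.0156 and 0.0176), each called in 12 of 17 alternatives. Slc30a8 and Nkx6-1 overlapped (log2 fold changes -0.31 and -0.02). Acinar, alpha, stromal, endothelial and immune markers were present as well. Lower sums were not limited to beta-cell markers. Of 7 delta, PP and epsilon markers 3 were called lower by edgeR. The 7 summed to 8677 to 14173 CPM in the controls and 6457 to 8666 CPM in knockout libraries. The 8 duct markers, of which 2 were called higher, summed to 1814 to 2324 and to 1058 to 1534 CPM. Schwann cell markers went the other way (67.6 to 83.0 and 91.1 to 111 CPM), and sums of the other lists overlapped.

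Ldha and Slc16a1 are the pair for which the idea of disallowed genes was framed, and they are shown because their fold changes had opposite signs, although neither was called. The 250 bases before their annotated starts are shown with the motif CACGTG, the E-box read by several basic helix-loop-helix factors, in capitals. The sequences are RefSeq's for build GRCm38.p6, which differs from the build of the counts, and they are given 5′ to 3′ on the plus strand, for the first of 2 starts of Ldha (chr7:46845554-46845803) and the only start of Slc16a1 (chr3:104638414-104638663).
Ldha: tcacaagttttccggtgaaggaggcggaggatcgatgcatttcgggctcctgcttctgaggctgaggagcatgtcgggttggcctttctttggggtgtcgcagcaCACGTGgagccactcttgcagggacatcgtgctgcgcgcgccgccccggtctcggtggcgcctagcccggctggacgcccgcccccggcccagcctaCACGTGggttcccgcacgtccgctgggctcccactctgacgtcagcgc
Slc16a1: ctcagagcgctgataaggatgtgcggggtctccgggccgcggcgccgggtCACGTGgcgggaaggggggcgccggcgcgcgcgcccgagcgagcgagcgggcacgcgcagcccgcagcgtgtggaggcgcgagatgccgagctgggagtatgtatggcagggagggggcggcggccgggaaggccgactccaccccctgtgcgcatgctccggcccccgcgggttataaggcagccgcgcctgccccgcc
The Ldha window holds 2 matches and the Slc16a1 window 1, while the window before the second listed start of Ldha (chr7:46846832-46847081) holds 0, and the motif reads the same on both strands. Of the 31 members 24 matched the promoter table, and 3 of the 24 (the third being Yap1) hold CACGTG in the first listed window, beside 6.05% of 27025 genes. The letters TAAT, the core bound by LIM-homeodomain and other homeodomain factors, occur on either strand in 7 of the 24 windows, beside 55.3% of all genes. CpG dinucleotides numbered 25 in the Ldha window and 37 in that of Slc16a1, with a median of 10 over the 24 members and 6 over all genes. A match describes the letters only and says nothing of binding or methylation, neither of which was measured.

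Levels in control islets were compared between genes per kilobase of annotated exon, a length that overstates the main transcript and so understates the level. By this measure 22 of the 31 members lay below the median of the 18115 tested genes with a length, and the median member stood at percentile 37.4. Most of the list was thus expressed at a low level in whole islets, but not all of it. Ldha stood at percentile 94.4 (40.5 ± 14.5 CPM per kb, SD, n = 3), followed by Zyx at 78.2, Zfp36l1 at 75.9 and Oat at 70.3. Itih5, at percentile 9.28 with 0.112 ± 0.0640 CPM per kb, was the lowest member, and Mylk, Arap2, Igf1 and Maf lay between percentiles 13.3 and 15.8. In bulk islets fewer cells of a type and less RNA per cell cannot be told apart, and other islet cells that express a member add to its level.

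**Figure D1:**
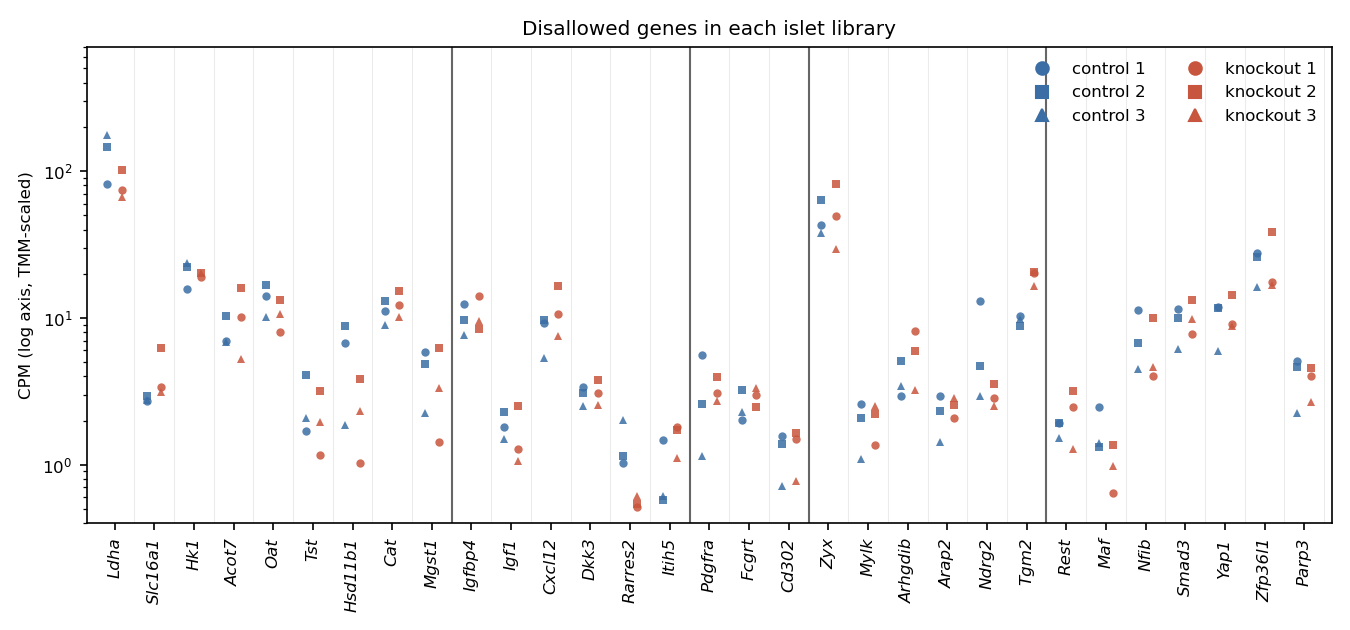
Level of each of the 31 disallowed genes in CPM (log axis) in the 3 control (blue) and 3 knockout (red) libraries, each point 1 library, with vertical lines between the 5 role groups. Most genes show overlapping groups, Tgm2 separates them upward, and Ldha stands above the other members in all libraries.

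Among the metabolic members none of 9 was called by edgeR or limma-voom and 1, Ldha, by DESeq2, 1 had an unadjusted p under 0.05, and 6 of the 9 fold changes were below 0. Ldha (ENSMUSG00000063229) measured 81.5, 145 and 175 CPM in control libraries 1, 2 and 3 and 74.4, 102 and 67.0 CPM in knockout libraries 1, 2 and 3. Control 2 and control 3 lay above all knockout libraries, while control 1 lay among them. The log2 fold change was -0.73 (SE 0.296, 95% interval -1.43 to -0.02) and did not pass (edgeR adjusted p = 0.218). The gene was called lower without control 1 (edgeR adjusted p = 0.0183), with no filter on low counts (0.00351) and by DESeq2 (0.0250), with a range of 0.00351 to 0.555 over 17 alternatives. Ldha has processed pseudogene copies in the mouse, so its count is uncertain. Per kb of exon, Ldha exceeded Ldhb, the heart-type subunit gene, by 3.66 to 9.89 times in control and by 4.55 to 7.26 times in knockout libraries.

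Slc16a1 (ENSMUSG00000032902) was flat across the controls, with 2.71, 2.94 and 2.76 CPM, and measured 3.36, 6.25 and 3.11 CPM in knockout libraries 1, 2 and 3. All 3 knockout libraries lay above all controls, the furthest being knockout 2, but the log2 fold change of 0.61 (SE 0.314, interval -0.07 to 1.29) did not pass (edgeR adjusted p = 0.288) and was called under none of 17 alternatives. Only 3 of 31 members had groups without overlap (Slc16a1 and Tgm2 higher, Rarres2 lower), beside 28.0% of all genes tested (14.0% higher and 14.1% lower).

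Hk1 (ENSMUSG00000037012), the high-affinity hexokinase of most tissues, measured 15.8, 22.2 and 23.5 CPM in the controls and 19.0, 20.3 and 20.1 CPM in knockout libraries. The knockout values fell inside the range of the controls. Its log2 fold change was -0.06 with an interval of -0.41 to 0.30, and the adjusted p was 0.883.

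The remaining metabolic members also overlapped between the groups. Catalase (Cat), which breaks down hydrogen peroxide, measured 11.1, 13.1 and 8.95 CPM in the controls and 12.3, 15.3 and 10.2 CPM in knockout libraries. Oat, the ornithine aminotransferase, ran from 10.2 to 16.8 CPM in the controls and from 8.02 to 13.2 CPM in knockout islets. Their log2 fold changes of 0.19 and -0.35 had intervals within 2-fold (-0.26 to 0.63 and -0.84 to 0.14). For Acot7, a cytosolic acyl-CoA thioesterase, Tst, the thiosulfate sulfurtransferase, and Mgst1, a membrane-bound glutathione transferase, the intervals reached 2-fold in at least 1 direction.

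Hsd11b1 (ENSMUSG00000016194), which regenerates active glucocorticoid, measured 6.77, 8.86 and 1.86 CPM in control libraries 1, 2 and 3 and 1.03, 3.82 and 2.33 CPM in knockout libraries 1, 2 and 3. Control 3 alone lay within the knockout range. The log2 fold change of -1.21 (SE 0.630) was not called by edgeR (adjusted p = 0.326), and without control 3 it was (adjusted p = 0.0284; 0.00839 to 0.803 over 17 alternatives).

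None of the 6 secreted factors was called by edgeR, DESeq2 or limma-voom, and 1 had an unadjusted p under 0.05. Rarres2 (ENSMUSG00000009281), the precursor of the chemoattractant chemerin, measured 1.02, 1.15 and 2.01 CPM in control libraries 1, 2 and 3 and 0.517, 0.537 and 0.616 CPM in knockout libraries 1, 2 and 3. The groups did not overlap, and control 3 stood furthest above the knockout libraries. With a log2 fold change of -1.33 (SE 0.474, interval -2.36 to -0.30), the most negative of the list, it did not pass (edgeR adjusted p = 0.116) and was called under none of 17 alternatives (0.0650 to 0.426). 

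Cxcl12, a chemokine for cells bearing CXCR4, measured 9.26, 9.61 and 5.37 CPM in the controls and 10.6, 16.6 and 7.55 CPM in knockout libraries, with overlap (log2 fold change 0.53, edgeR adjusted p = 0.347). Igf1, the growth hormone-induced growth factor, ran from 1.50 to 2.27 CPM in the controls and from 1.06 to 2.52 CPM in knockout islets. Its binding protein gene Igfbp4 ran from 7.65 to 12.5 and from 8.40 to 14.1 CPM. The knockout ranges of Igf1 and Igfbp4 thus cover most of the control ranges. Dkk3, a secreted protein of the dickkopf family, had an interval of -0.54 to 0.73 around a log2 fold change of 0.09. Itih5, which binds hyaluronan, was higher in knockout 1 and 2 (1.81 and 1.72 CPM) than in any control (0.573 to 1.47 CPM), while knockout 3 at 1.12 CPM lay among them.

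The 3 membrane receptors were not called by edgeR, DESeq2 or limma-voom, and 0 had an unadjusted p under 0.05. Pdgfra, the receptor that marks mesenchymal cells, measured 5.59, 2.58 and 1.14 CPM in control libraries 1, 2 and 3 and 3.10, 3.95 and 2.72 CPM in knockout libraries 1, 2 and 3. Its controls spanned 4.92-fold, the widest of the list, and enclosed the knockout libraries. Fcgrt, the neonatal Fc receptor, had a log2 fold change of 0.20 with an interval of -0.47 to 0.87. Cd302, a C-type lectin receptor, lay between 0.712 and 1.65 CPM in all 6 libraries, and the control 3 and knockout 3 libraries were the lowest of their groups for it.

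Tgm2 (ENSMUSG00000037820) belongs to the 6 genes of the cytoskeleton and of signalling. It measured 10.3, 8.86 and 9.79 CPM in control libraries 1, 2 and 3 and 20.1, 20.4 and 16.4 CPM in knockout libraries 1, 2 and 3. The controls lay within 1.16-fold of each other and the knockout libraries within 1.25-fold, and the groups were well apart. The log2 fold change was 0.98 (SE 0.162, interval 0.62 to 1.33, edgeR adjusted p = 0.00370). The call held whichever of the 6 libraries was left out (adjusted p 0.00165 to 0.0233) and was lost only without both shallow libraries (adjusted p = 0.0832, log2 fold change 0.98). It belongs to a family of which 5 of 8 other listed genes were tested and none was called by edgeR, DESeq2 or limma-voom, with 0 of 5 at an unadjusted p under 0.05. Tgm5, the one with the smallest p, measured at most 0.517 CPM in any library.

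Ndrg2 (ENSMUSG00000004558), a stress-responsive gene of the N-myc downstream-regulated family, measured 13, 4.73 and 2.95 CPM in control libraries 1, 2 and 3 and 2.85, 3.52 and 2.50 CPM in knockout libraries 1, 2 and 3. Control 1 stood far above the other libraries, and control 3 lay inside the knockout range. The log2 fold change of -1.17 (SE 0.498) did not pass in edgeR (adjusted p = 0.213). It was called lower without control 3 (0.0257), with no filter (0.00248) and by DESeq2 (0.0450), but without control 1 the log2 fold change was -0.37 (adjusted p = 0.607) and without both shallow libraries -0.35 (0.637).

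Zyx, which encodes the focal adhesion protein zyxin, was the member with the highest level after Ldha. It measured 42.7, 63.5 and 37.6 CPM in the controls and 49.1, 82.2 and 29.5 CPM in knockout libraries, so the knockout group enclosed the controls. Arhgdib, expressed mainly in blood cells, ran from 2.94 to 5.05 CPM in the controls and reached 8.15 CPM in knockout 1. Of the 11 immune cell markers, Cd3e had at most 2 counts in any library and was not tested. The markers had their highest sum in knockout 1 too, at 184 CPM beside 92.7 to 114 CPM in the other libraries. C1qa (66.4 CPM) and Lyz2 (42.4 CPM) led that sum. C1qa, C1qb, C1qc, Lyz2, Adgre1, Csf1r and Itgax were highest in knockout 1, Ptprc and Cd79a in control 1 and Cd68 in control 3. The part of immune cells in the Arhgdib value was not tested. Mylk, the myosin light chain kinase, and Arap2, an Arf GTPase-activating protein, had log2 fold changes of 0.14 and 0.20 and overlapping groups.

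None of the 7 regulators was called by edgeR, DESeq2 or limma-voom, 0 had an unadjusted p under 0.05, and in all 7 the groups overlapped. Rest (ENSMUSG00000029249), the repressor of neuronal genes, measured 1.92, 1.93 and 1.51 CPM in the controls and 2.46, 3.20 and 1.29 CPM in knockout libraries. Knockout 1 and 2 lay above the controls and knockout 3 below them (log2 fold change 0.38, interval -0.47 to 1.23, edgeR adjusted p = 0.641). Maf, the c-MAF factor that resembles the islet factor MAFA, measured 2.48, 1.33 and 1.40 CPM in the controls and 0.647, 1.36 and 0.986 CPM in knockout libraries. Per kb, Mafa stood 285 to 536 times above Maf in control and 167 to 420 times above it in knockout islets. Mafa was itself called lower, so this ratio does not follow Maf alone.

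Smad3, a mediator of TGF-beta signals, measured 11.5, 9.93 and 6.16 CPM in control libraries 1, 2 and 3 and 7.76, 13.2 and 9.79 CPM in knockout libraries 1, 2 and 3. Yap1, the Hippo pathway coactivator, measured 11.8, 11.7 and 5.92 CPM in the controls and 9.06, 14.3 and 8.87 CPM in knockout libraries. In both genes control 3 was lowest and knockout 2 highest of all 6 libraries, and both intervals lay within 2-fold (-0.37 to 0.74 and -0.46 to 0.77). Zfp36l1, which binds AU-rich elements of messenger RNAs, followed the same pattern with 27.7, 26.1 and 16.2 CPM in the controls and 17.6, 38.3 and 16.7 CPM in knockout libraries. Nfib, a nuclear factor I protein gene, had an interval of -1.16 to 0.73. Parp3, a poly(ADP-ribose) polymerase gene active in DNA repair, had an interval of -0.81 to 0.66.

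**Figure D2:**
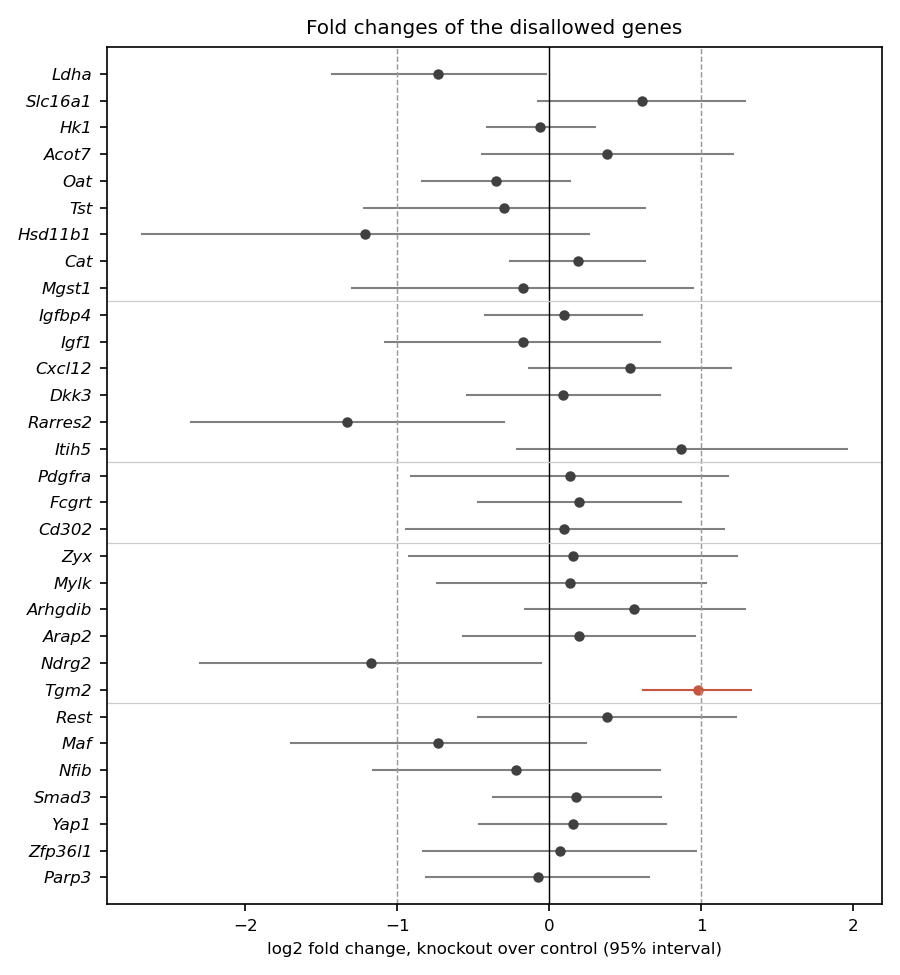
Log2 fold change (knockout over control, dots) of each disallowed gene with its 95% interval (lines) from edgeR's quasi-likelihood test, with dashed lines at 2-fold. Tgm2, in red, is the gene called, and 20 of the 31 intervals reach 2-fold in at least 1 direction.

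A gene that was not called is not shown to be unchanged. For 11 of the 31 members the 95% interval of the fold change lay within 2-fold in both directions, against 56.8% of all genes tested and 73.0% of the 13458 tested genes in the members' range of control CPM. For the other 20, Tgm2 among them, a 2-fold change lay inside the interval. The spread between libraries of a group was wide for the members. The highest control library exceeded the lowest by a median of 1.87-fold for the members and 1.30-fold for genes in their range of CPM, and in the knockout group these values were 1.70 and 1.32.

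Within each group the members varied together from library to library. Control 3 was the lowest control library for 21 of 31 members (67.7%, against 31.3% of all genes tested), and knockout 2 was the highest knockout library for 24 of 31 (77.4%, against 30.5%). Knockout 3 was the lowest of its group for 18 of 31 (58.1%, against 34.4%). Control 1 was the highest control library for 16 of 31 (51.6%, against 34.1%) and control 2 for 12 (38.7%, against 32.1%). These counts are a description, since genes within a library are not independent of each other. Leaving out Ldha, which makes up a large part of the total, the other 30 members summed to 249.9, 265 and 177 CPM in control libraries 1, 2 and 3 and to 225, 328 and 188 CPM in knockout libraries 1, 2 and 3.

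**Figure D3:**
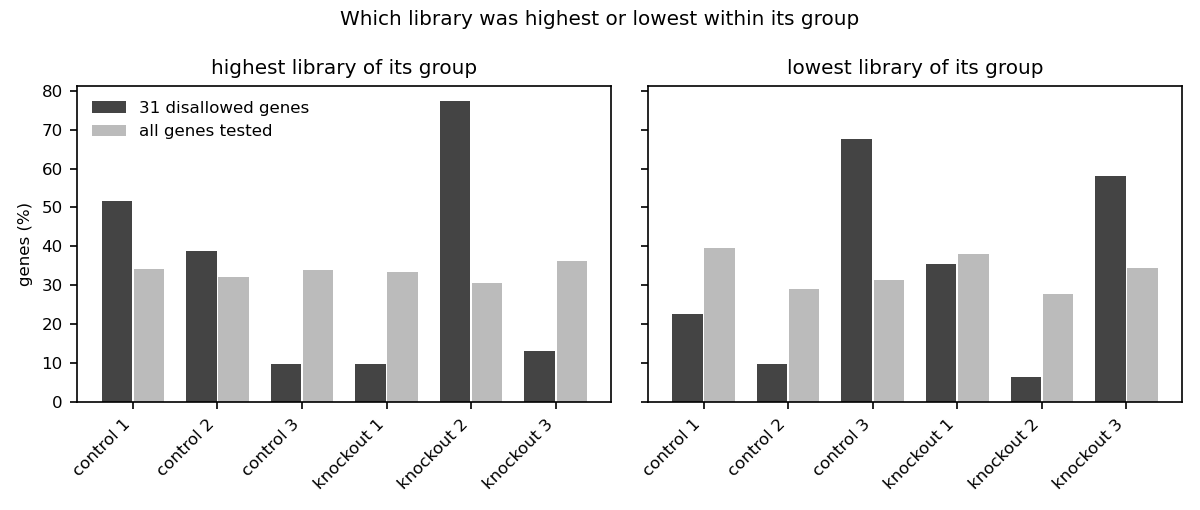
Share of genes (%) for which each library was the highest (left) or the lowest (right) of its group of 3, for the 31 disallowed genes (dark bars) and for all 18558 genes tested (light bars). Knockout 2 was highest for 77.4% and control 3 lowest for 67.7% of the disallowed genes.

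Sums of markers of the exocrine acinar cells, which surround islets in the pancreas, came in much the same order as these sums. Member by member the order differed, since control 1 and not control 2 was most often the highest control. The 10 acinar markers, all tested and none called by edgeR and none at 0 in any library, summed to 21314, 33801 and 17290 CPM in control libraries 1, 2 and 3 and to 21978, 44548 and 13162 CPM in knockout libraries 1, 2 and 3. Knockout 2 and then control 2 had the highest sums for both the acinar markers and the 30 members without Ldha, and control 3 and knockout 3 the lowest for both. With Ldha, all 31 members summed to 331, 411 and 352 CPM in control libraries 1, 2 and 3 and to 299, 429.8 and 255 CPM in knockout libraries 1, 2 and 3, so that control 3 was then no longer among the lowest. The 12 stromal markers, none called by edgeR and none at 0, summed to 362, 376 and 218 CPM in the controls and to 292, 252 and 270 CPM in knockout libraries, so control 3 was lowest here as well while knockout 2 was not high. The 10 endothelial markers, 1 called higher and 1 lower, summed to between 251 and 294 CPM in the controls and between 283 and 353 CPM in knockout libraries, and knockout 2 was the highest.

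With the acinar sum as a covariate, an alternative chosen after seeing the data, Tgm2 was again the only member called (log2 fold change 0.97, edgeR adjusted p = 0.00197). Slc16a1 then had a log2 fold change of 0.53 and an adjusted p of 0.293. How far other cell types set the levels of the remaining members was not tested.

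**Figure D4:**
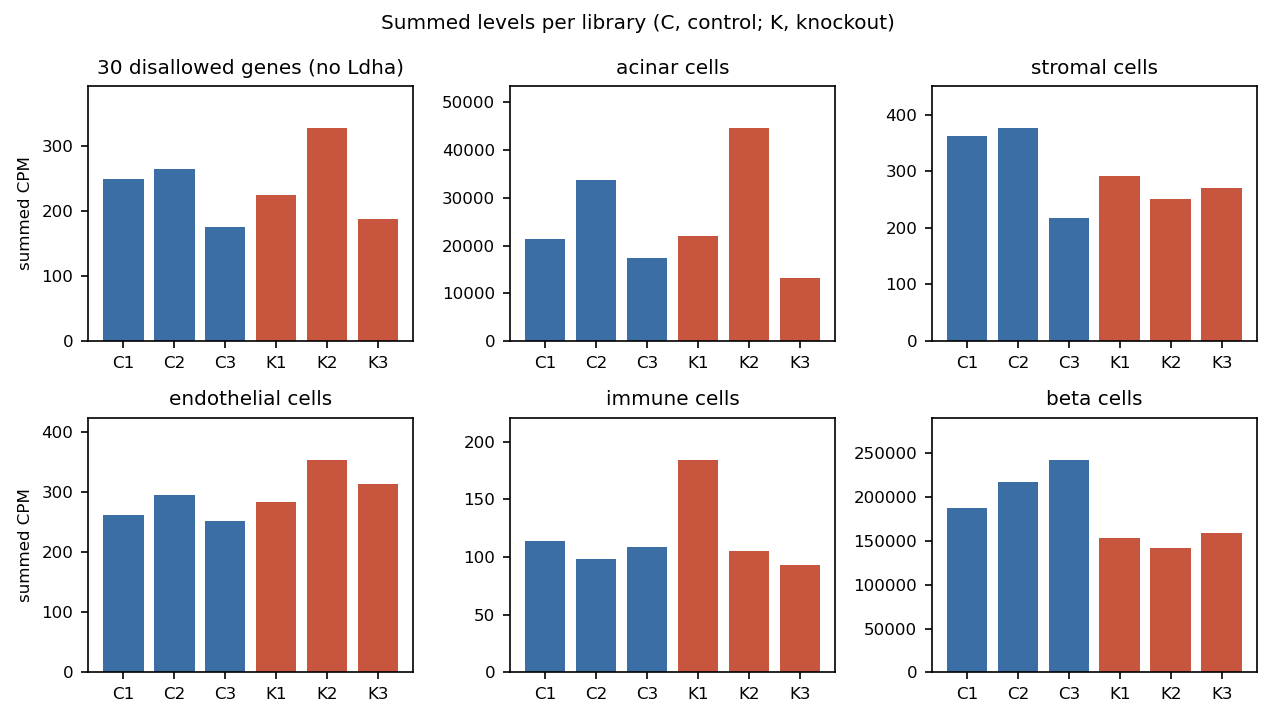
Summed CPM in each library (C1 to C3 control, K1 to K3 knockout) of the 30 disallowed genes without Ldha and of 5 cell type marker lists, with bars that start at 0. K2 and C2 lead both the disallowed genes and the acinar markers. The beta-cell sums, made up mostly of Ins2, Ins1 and Iapp, are lower in the knockout libraries than in the controls. Sums of delta, PP and epsilon markers and of duct markers, not drawn, are lower as well.

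Other genes of the same pathways were taken from 14 lists that hold no member. Counts called in these lists stand beside 3.72% of all genes tested called higher and 3.35% lower by edgeR. None of the lists was tested as a set. Around Ldha and Slc16a1, 3 of 20 genes of lactate and pyruvate handling were lower and none higher, with a median log2 fold change of -0.04. Slc16a3 (ENSMUSG00000025161), the lactate exporter MCT4 and a paralog of Slc16a1, measured 12.4, 19.8 and 30.5 CPM in the controls and 10.2, 7.02 and 10.4 CPM in knockout libraries (log2 fold change -1.21, SE 0.300, edgeR adjusted p = 0.0413). Per kb the ratio of Slc16a3 to Slc16a1 was 3.81 to 9.18 in the controls and 0.934 to 2.78 in the knockout libraries, without overlap and with Slc16a3 below Slc16a1 in knockout 2, a comparison made after the values were seen. Control 3 was the highest control library for Slc16a3 and control 1 the lowest, the same positions as for Ldha. Mdh1, the cytosolic malate dehydrogenase, fell from 311 ± 28.0 to 220 ± 10.9 CPM and Mpc1, a subunit of the mitochondrial pyruvate carrier, from 19.9 ± 1.81 to 13.5 ± 1.02 CPM (SD, n = 3, edgeR adjusted p 0.0231 and 0.0423).

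These 3 calls were not stable. That of Slc16a3 held without control 1 and was lost on leaving out any of the other 5 libraries (adjusted p 0.0625 to 0.160) and that of Mdh1 without control 2, control 3, knockout 1 or knockout 2 (0.0561 to 0.106). The call of Mpc1 was lost without any of the 6 libraries in turn (0.0504 to 0.172) and with a length offset (0.0605), and all 3 were lost without both shallow libraries (0.0776, 0.118 and 0.186). Around Hk1, G6pc2, the glucose-6-phosphatase of beta cells, was the only called gene of 10 (1553 ± 305 to 669 ± 112 CPM, SD, n = 3, edgeR adjusted p = 0.00175, lost without both shallow libraries at 0.105).

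Among partners of the secreted members, 2 genes of the IGF axis were called. There 2 of 13 genes tested were higher and none lower. Igfbp5, a binding protein gene like Igfbp4, measured 139, 165 and 102 CPM in the controls and 321, 242 and 318 CPM in knockout libraries (log2 fold change 1.12, SE 0.173, edgeR adjusted p = 0.00277). Igfals, the acid-labile subunit that carries IGF1 in blood, rose from 59.9 ± 13.4 to 100.3 ± 18.8 CPM (SD, n = 3, edgeR adjusted p = 0.0233). Igfbp5 lost its call only without both shallow libraries (0.124), whereas Igfals also lost it without control 1, control 2, knockout 1 or knockout 3 (0.0593 to 0.112). Of the 9 chemokine and chemerin partners tested none was called by edgeR or limma-voom and 4 by DESeq2, 4 had an unadjusted p under 0.05, and Cxcl10, the one with the smallest p, had a log2 fold change of 1.58 (adjusted p = 0.131; 0.0264 by DESeq2 and 0.00262 without a filter).

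YAP1 and SMAD3 act with partners of which some were called. Of 20 Hippo pathway genes 2 were higher and none lower. Vgll4, a TEAD-binding antagonist of YAP, rose from 9.49 ± 0.502 to 19.5 ± 2.19 CPM and Tead1, a DNA-binding partner of YAP, from 19.9 ± 3.91 to 31.2 ± 6.27 CPM (SD, n = 3, edgeR adjusted p 0.00233 and 0.0429). Of 20 genes of TGF-beta signalling 3 were higher and none lower: Ski, a corepressor of SMAD proteins (log2 fold change 0.64, edgeR adjusted p = 0.0133), Smad4, the common partner of SMAD3 (0.54, 0.0244), and the co-receptor gene Tgfbr3 (0.87, 0.0455). Vgll4 lost its call only without both shallow libraries (0.0758). Tead1 lost it without control 2, control 3, knockout 1 or knockout 3 (0.0750 to 0.186), Ski without control 1 or 2 (0.0637 and 0.0620), Smad4 without control 1, control 2, knockout 2 or knockout 3 (0.0550 to 0.112), and Tgfbr3 without any of the 6 in turn (0.0531 to 0.182), with a length offset (0.0510) and with upper-quartile scaling (0.0519). Without both shallow libraries Tead1, Ski, Smad4 and Tgfbr3 were not called either (0.120, 0.120, 0.128 and 0.128).

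Neuroendocrine genes that REST represses outside neurons and islets went in both directions, 4 of 20 higher and 3 lower, with a median log2 fold change of -0.28. Chgb, the granule protein chromogranin B, rose from 2838 ± 704 to 10642 ± 2361 CPM, Sez6 from 0.480 ± 0.375 to 3.02 ± 0.808 CPM and the presynaptic scaffold gene Bsn from 10.1 ± 1.97 to 19.3 ± 2.55 CPM (SD, n = 3, edgeR adjusted p 0.000538, 0.00927 and 0.0105). Syp, the vesicle protein synaptophysin, fell from 256 ± 8.86 to 173 ± 11.4 CPM (adjusted p = 0.0104 by edgeR). Bsn lost its call without control 2 (0.0511), Syp without knockout 1 or 2 (0.0514 and 0.0620), and Chgb, Bsn and Syp without both shallow libraries (0.0776, 0.131 and 0.129). Among 10 REST cofactors none was called by edgeR, DESeq2 or limma-voom, and 3 had an unadjusted p under 0.05. Kdm1a, the histone demethylase LSD1, had the smallest p (log2 fold change 0.37, adjusted p = 0.0779, and 0.0266 with the acinar covariate).

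Near the detoxifying and steroid enzymes, 2 of 19 genes of peroxide and glutathione handling were higher and 1 lower. Gstm1, a cytosolic glutathione transferase, measured 62.0, 67.7 and 78.8 CPM in the controls and 197, 147 and 165 CPM in knockout libraries (log2 fold change 1.28, edgeR adjusted p = 0.000224), a call kept under all 17 alternatives. Gsr, glutathione reductase, rose by a log2 fold change of 0.53 (adjusted p = 0.0171), and Prdx5, a peroxiredoxin, fell by 0.45 on the log2 scale (0.0289). Gsr was not called without control 1 or 2 or without knockout 1 or 2 (edgeR adjusted p 0.0534 to 0.106), Prdx5 without any library but control 3 (0.0568 to 0.164), and both without both shallow libraries (0.150 and 0.183). H6pd, which supplies HSD11B1 with NADPH in the endoplasmic reticulum, rose from 49.8 ± 3.38 to 76.9 ± 3.45 CPM (SD, n = 3, edgeR adjusted p = 0.00498, lost only without both shallow libraries at 0.0776), while Hsd11b1 itself was not called. Of 10 other acyl-CoA thioesterases Acot12 was higher (0.408 ± 0.233 to 2.35 ± 0.382 CPM, edgeR adjusted p = 0.00973, 0.0759 without both shallow libraries). Its level in control 1 rested on 3 counts (0.169 CPM). Acot13 was lower (38.6 ± 0.793 to 28.1 ± 2.06 CPM, 0.0390), a call lost without any of the 6 libraries in turn (0.0595 to 0.168), with a length offset (0.225) and without both shallow libraries (0.216).

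**Figure D5:**
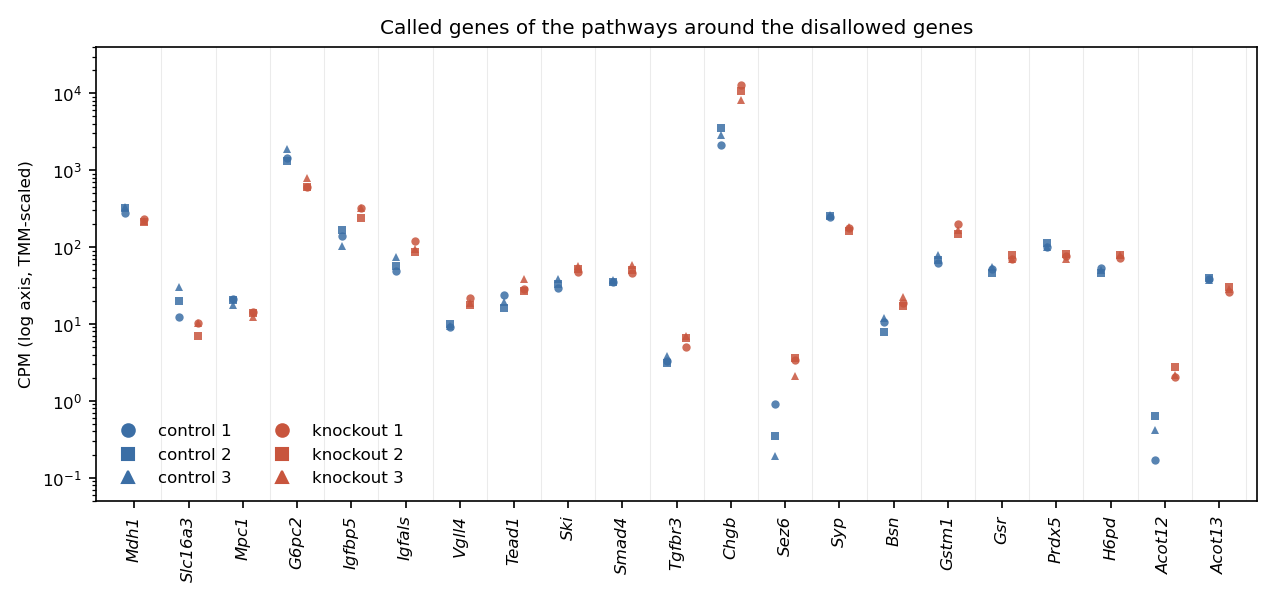
Level in CPM (log axis) in each control (blue) and knockout (red) library of the 21 called genes named from the pathways of the disallowed genes. For each gene the 3 knockout points lie on 1 side of the 3 control points, with Chgb, Igfbp5, Gstm1 and Acot12 above and Slc16a3, Mpc1 and Syp below.

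Genes of DNA methylation and Polycomb silencing, which are known to help keep genes off in beta cells, were not called by edgeR or limma-voom, 0 of 14, and 1 was by DESeq2, with 3 at an unadjusted p under 0.05. Kdm6b, a demethylase of the Polycomb mark, had the smallest p (log2 fold change 0.58, adjusted p = 0.0791), and it was called without control 3 (0.00309), without a filter (0.00152), by DESeq2 (0.0332) and with the acinar covariate (0.0229). Of 15 tested partners of Pdgfra and Mylk in contractile mesenchyme none was called by edgeR, DESeq2 or limma-voom, 1 had an unadjusted p under 0.05, and that gene, Vcl (vinculin), had a log2 fold change of 0.77 (adjusted p = 0.161; 0.0345 without knockout 1 and 0.0162 without a filter).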

How the data were processed

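Tools named in the submitters' processing notes are featureCounts, STAR 2.7.3a, Trim Galore 0.6.7 and FastQC 0.11.9, with the build GRCm39. Not given in the sources used here are the gene annotation, strandedness and the treatment of multi-mapping reads and pairs, so reads of overlapping, antisense and near-identical genes cannot be told apart. The authors deposited raw counts, unscaled, for 56980 Ensembl IDs in 6 columns, whose names give the group but not the animal. Symbols matched 52073 IDs. Between 62.3% and 73.2% of nonzero counts in a library were even, so a count may be less than a fragment.

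From these counts, genes passing filterByExpr went into edgeR 4.0.16 under R 4.3.3 (TMM, robust quasi-likelihood test, Benjamini-Hochberg adjustment over 18558 genes). The test was checked on data simulated from a model fitted to these counts, with genes independent, which checks the code but not the model. SE and 95% intervals derive from that test. Exon lengths came from GENCODE M21 (GRCm38) by gene ID. Alternatives used DESeq2 1.42.0, limma-voom 3.58.1, other scalings and filters, a length offset and left-out libraries, and, chosen after seeing the data, an acinar covariate and a block on the column number. The members and lists were chosen with earlier results of these data known. The genes named are all members, Ssbp3, and from each pathway list the called genes up to 4 or the 1 with the smallest p. No list was tested as a set.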

Additional observations from a re-analysis of the deposited data

How the results depend on the processing

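Tgm2 was called in 16 of 17 alternatives and was the only member called higher in any of them. Without the shallowest library of each group 0 members, and 76 higher and 48 lower genes in all, were called by edgeR. Members called lower numbered 3 without a filter (Ldha, Hsd11b1 and Ndrg2) and 2 with DESeq2 (Ldha and Ndrg2). They numbered 0 to 2 when each library was left out in turn, with Ldha called without control 1, and Hsd11b1 and Ndrg2 without control 3. Over all genes, leaving out each library gave 295 to 719 higher and 224 to 590 lower. DESeq2 gave 1094 and 986, the acinar covariate 1070 and 940, and no filter 1222 higher. The median log2 fold change of the members ran from -0.11 to 0.21 over the alternatives, and 17 uncalled members changed sign in at least 1. The causes were not tested. The columns are numbered within each group, but the numbers match no sample label, and libraries with the same number deviated from their group means with correlations of only 0.016, 0.081 and 0.066 over genes, although each library correlated best with its own number. A replicate block on the column number, added after seeing the data, gave 1118 higher and 987 lower genes and again Tgm2 as the only member. Low depth in control 1 and knockout 1 limits the members near 1 CPM most.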
